A study of Homo sapiens with 4 samples.

Results

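The genes described here make progesterone from cholesterol or regulate that pathway. There are 10 of them, STAR, SCARB1, TSPO, CYP11A1, FDX1, HSD3B1, HSD3B2, CYB5A, NR5A1 and NR5A2, among 17687 genes named by a probe set. They were chosen by name for their role in steroid synthesis, with earlier results of these data known, and all 10 were measured, each by 1 probe set that names no other gene. RNA came from KGN, an established human granulosa cell line of tumour origin, and was hybridised to Clariom S Human arrays. The 4 groups had 1 array each. Cells of the group siNC received control siRNA at 10 nM and no further agent. The group siNC+8Br-cAMP received the same siRNA and, from 48 h after transfection, 0.5 mM 8Br-cAMP for 24 h. Cells of the group siYT received siRNAs against YAP and TAZ at 5 nM each, and the group siYT+8Br-cAMP received these siRNAs and 8Br-cAMP in the same way. All groups were thus transfected, and because YAP and TAZ were targeted together, the share of each cannot be told apart.

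In granulosa cells, as background, cholesterol is taken up through the lipoprotein receptor SCARB1 and is carried to the inner mitochondrial membrane by STAR. There CYP11A1, supplied with electrons by the ferredoxin FDX1, cuts its side chain to give pregnenolone, which the 3-beta-hydroxysteroid dehydrogenases HSD3B1 and HSD3B2 turn into progesterone. Gonadotropins raise cyclic AMP, and 8Br-cAMP is a cell-permeable analogue of it. NR5A1 (steroidogenic factor 1) and NR5A2 (liver receptor homologue 1) are nuclear receptors that bind DNA as single molecules and are known regulators of these genes. YAP and TAZ are coactivators that the Hippo pathway holds out of the nucleus.

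Promoter sequences are shown for CYP11A1 and HSD3B2 because these genes had the largest differences of the pathway for which the RefSeq promoter table (GRCh38.p14) holds an entry. In each line the capitals mark matches to CAAGGNCA, a form of the element that NR5A receptors bind with any base at N, and to TGACG, the core of the cyclic AMP response element. Both were sought on both strands in the 250 bases before the annotated start.

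CYP11A1, chr15:74367647-74367896, minus strand: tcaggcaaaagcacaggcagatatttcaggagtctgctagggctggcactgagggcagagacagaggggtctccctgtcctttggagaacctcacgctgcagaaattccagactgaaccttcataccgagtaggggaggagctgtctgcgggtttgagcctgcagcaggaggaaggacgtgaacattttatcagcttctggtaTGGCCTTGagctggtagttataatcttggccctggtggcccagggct
HSD3B2, chr1:119414681-119414930, plus strand: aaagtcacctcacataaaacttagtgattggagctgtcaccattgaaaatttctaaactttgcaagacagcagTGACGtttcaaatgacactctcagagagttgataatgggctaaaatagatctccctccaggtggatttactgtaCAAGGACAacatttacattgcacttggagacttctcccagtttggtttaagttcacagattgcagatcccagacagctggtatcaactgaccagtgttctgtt

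The CYP11A1 window held CAAGGNCA once, on the strand opposite to the gene, from 47 bases before the start, and it did not hold TGACG. The HSD3B2 window held CAAGGNCA once on the gene's strand, from 103 bases before the start, and TGACG once, from 177 bases before it. Of the 10 genes, 8 matched the promoter table with 12 windows, since HSD3B1, NR5A2 and TSPO have several annotated starts. STAR and SCARB1 had no entry and were not searched. Among the 8 genes searched, CYP11A1 and HSD3B2 were the 2 with CAAGGNCA, which 4.51% of all 35116 promoter windows of this length hold. Here and below the counts are of genes, some with several windows, while the shares are of windows, so the units differ. The shorter AAGGNCA, which lies within CAAGGNCA, was also present in HSD3B1 and CYB5A and is found in 14.8% of all windows. TGACG was present in HSD3B2, NR5A2 and TSPO and in 21.2% of all windows. The full palindrome TGACGTCA (1.65% of all windows) and GGAATG, the motif of the TEAD factors through which YAP and TAZ act (11.9%), were found in 0 of the 8 genes. These matches describe letters in a window and are not binding sites.

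The levels are deposited log2 signals. They reached 19.36 over all probe sets, above the log2 maximum of 16 of a 16-bit scanner, so a further rescaling is possible and a fold computed from them need not be a ratio of scanner signals. A difference was called by size when it was at least 1 (2-fold) and its higher side was at or above 6.22, the median over all genes and arrays, called the level filter here. With 1 array per group no difference between arrays had a replicate check. An additive limma fit over all genes, with a term for each agent, compared 2 arrays with 2. Its error holds the difference of differences as well as array noise, so a p-value from it says nothing of the spread between cultures, and the sizes come first here. Only genes that passed this fit are said to have risen or fallen. As a check of the siRNA, YAP1 was at 9.48 in siNC, 9.46 in siNC+8Br-cAMP, 6.80 in siYT and 6.29 in siYT+8Br-cAMP, and WWTR1, which encodes TAZ, was at 7.58, 9.13, 5.45 and 5.35 in the same order. Of 13 measured granulosa markers 10 reached the level filter on some array, while FOXL2, AMHR2 and INHA, a defining factor, a receptor and a hormone subunit of granulosa cells, did not. Among the 10, FSHR reached it only on the siYT arrays, INHBB only on siNC and CYP19A1 on all arrays but siNC. The 95th percentile of the negative control probe sets, 6.95, lies above the filter, and FSHR, at most 6.63, stayed under it. The 13 measured markers of theca and Leydig cells, adrenal cortex, blood cells, endothelium and epithelium all stayed under it. These counts depend on how genes were assigned. The keratins KRT8 and KRT18, above the level filter on all 4 arrays, were counted with granulosa cells and LHCGR with theca and Leydig cells. Epithelium had only EPCAM and CDH1. The median siRNA difference of the 2197 positive control probe sets was -0.36 in medium without 8Br-cAMP and -0.35 in medium with it, and their part in the siRNA differences was not tested.

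**Figure D1:**
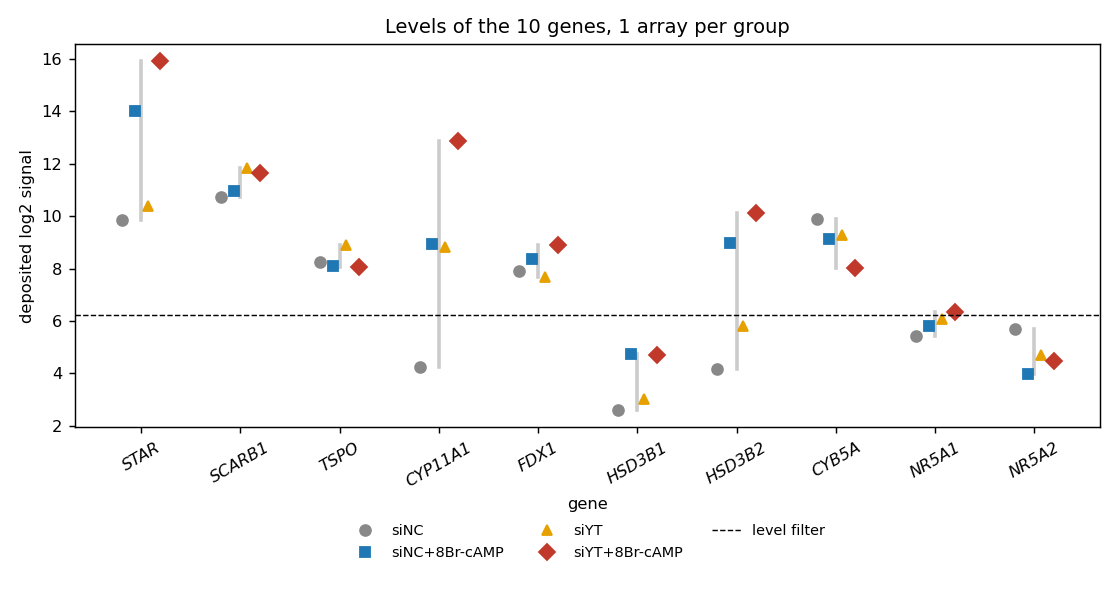
Deposited log2 signal (vertical axis) of each of the 10 genes (horizontal axis) on the 4 arrays; each symbol is 1 array, the grey bar spans the lowest to the highest and the dashed line is the level filter of 6.22. STAR, CYP11A1 and HSD3B2 spread over 6.05, 8.59 and 5.96 log2 units and are highest in siYT+8Br-cAMP, while HSD3B1 and NR5A2 lie under the line on all 4 arrays; heights of different genes are not comparable.

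STAR, the carrier of cholesterol into mitochondria, was at 9.84 in siNC, 14.01 in siNC+8Br-cAMP, 10.38 in siYT and 15.90 in siYT+8Br-cAMP. The arrays with 8Br-cAMP were the high ones, and the array with both agents was the highest. The 8Br-cAMP difference was 4.16 after siNC (17.9-fold) and 5.51 after siYT (45.6-fold), and STAR rose with 8Br-cAMP by a mean of 4.84 (SE 0.37, limma adjusted p = 0.000145). Counting STAR itself, 20 of 17687 genes were at least as much higher with 8Br-cAMP after siNC and 6 after siYT. The siRNA difference was 0.54 (1.45-fold) without 8Br-cAMP, which was not called, and 1.89 (3.70-fold) with it, which was. At least as much higher with the siRNA, STAR included, were 3804 genes without 8Br-cAMP and 202 with it. The mean of 1.215 did not pass the fit (SE 0.37, limma adjusted p = 0.0738, and over 5 alternatives from 0.0304, in a fit limited to genes that reached the level filter, to 0.232 with a pseudocount). In these bulk samples, more cells with a transcript and more transcript per cell cannot be told apart.

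SCARB1, the receptor that takes up cholesterol from high-density lipoprotein, was at 10.71 in siNC, 10.97 in siNC+8Br-cAMP, 11.82 in siYT and 11.63 in siYT+8Br-cAMP. The siYT arrays lay above the siNC arrays in either medium. The siRNA difference was 1.11 without 8Br-cAMP (2.16-fold, called) and 0.66 with it (1.58-fold, not called), and the mean of 0.88 did not pass (SE 0.31, limma adjusted p = 0.121). The 8Br-cAMP differences were 0.26 after siNC and -0.19 after siYT. TSPO, a cholesterol-binding protein of the outer mitochondrial membrane, was at 8.23 in siNC, 8.08 in siNC+8Br-cAMP, 8.896 in siYT and 8.05 in siYT+8Br-cAMP. It was highest in siYT and was called in none of the differences, the farthest of which was -0.85 for 8Br-cAMP after siYT.

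CYP11A1, the side-chain cleavage enzyme, showed the widest range of the 10 genes. It was at 4.25 in siNC, 8.94 in siNC+8Br-cAMP, 8.82 in siYT and 12.84 in siYT+8Br-cAMP. The siNC array alone lay under the level filter, where 66.5% of the 612 negative control probe sets were at or below its value, so folds that start from it depend on the background. Either agent alone brought the signal to almost the same level, with siYT 0.12 below siNC+8Br-cAMP. The siRNA difference was 4.56 (23.6-fold) without 8Br-cAMP and 3.91 (15.0-fold) with it, where the lower value was itself above the filter. CYP11A1 rose with YAP/TAZ siRNA by a mean of 4.23 (SE 0.32, limma adjusted p = 8.46e-05). The 8Br-cAMP difference was 4.69 (25.7-fold) after siNC and 4.03 (16.3-fold) after siYT, and CYP11A1 rose by a mean of 4.36 (SE 0.32, limma adjusted p = 0.000133). With a pseudocount of 32 on the linear scale the differences that start from siNC were smaller, 3.24 for the siRNA and 3.36 for 8Br-cAMP. In the comparisons that do not use the siNC array, and counting CYP11A1 itself, 10 of 17687 genes were at least as much higher after the siRNA with 8Br-cAMP and 32 with 8Br-cAMP after siYT.

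FDX1, the ferredoxin that passes electrons to CYP11A1, was at 7.89 in siNC, 8.36 in siNC+8Br-cAMP, 7.67 in siYT and 8.88 in siYT+8Br-cAMP. The 2 arrays with 8Br-cAMP were the higher ones. The 8Br-cAMP difference of 0.47 after siNC was not called and that of 1.21 after siYT (2.31-fold) was, while the mean of 0.84 did not pass (SE 0.33, limma adjusted p = 0.260). The siRNA differences were -0.22 without and 0.52 with 8Br-cAMP. CYB5A, cytochrome b5, an electron carrier and a helper of the enzyme CYP17A1, went the other way. It was at 9.90 in siNC, 9.12 in siNC+8Br-cAMP, 9.27 in siYT and 8.03 in siYT+8Br-cAMP, with the array of both agents the lowest. Its siRNA difference was -0.63 without and -1.09 with 8Br-cAMP, and its 8Br-cAMP difference -0.78 after siNC and -1.24 after siYT. In each pair only the second was called, and the means of -0.86 and -1.01 did not pass (limma adjusted p = 0.131 and 0.155).

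HSD3B2, the dehydrogenase of adrenals and gonads, was at 4.17 in siNC, 8.99 in siNC+8Br-cAMP, 5.80 in siYT and 10.12 in siYT+8Br-cAMP. The arrays without 8Br-cAMP lay under the level filter and those with it above. The 8Br-cAMP difference was 4.82 (28.3-fold) after siNC and 4.33 (20.1-fold) after siYT, folds that start near the background, and HSD3B2 rose by a mean of 4.57 (SE 0.32, limma adjusted p = 0.000101). The siRNA difference was 1.13 (2.20-fold) between the 2 arrays above the filter and 1.63 (3.09-fold) between those under it, where it was not called. HSD3B2 rose with YAP/TAZ siRNA by a mean of 1.38 (SE 0.32, limma adjusted p = 0.0225).

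HSD3B1, the form best known from placenta and skin, was at 2.62 in siNC, 4.73 in siNC+8Br-cAMP, 3.02 in siYT and 4.71 in siYT+8Br-cAMP. All 4 values lay under the level filter, and between 19.6% and 81.2% of the negative controls of the same array were at or below them. Its 8Br-cAMP differences of 2.12 and 1.69 were therefore not called by size. The mean of 1.90 passed the fit (SE 0.31, limma adjusted p = 0.0137), on values that are not separated from the background. With a pseudocount of 32 the mean was 0.58. No gene passed the fit in that setting, so the limma adjusted p of 0.228 there says nothing particular to HSD3B1. The siRNA differences were 0.41 and -0.02. HSD3B1 and HSD3B2 are close copies of each other on chromosome 1, and whether the HSD3B1 probes also bind HSD3B2 RNA was not tested, so its values are uncertain. The best ungapped match between their promoter windows is a stretch in which 37 of 39 bases are identical, and capitals mark the 2 that differ. It lies before the annotated starts, so it does not bear on which RNA the probes bind.

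HSD3B2, chr1:119414892-119414930, plus strand: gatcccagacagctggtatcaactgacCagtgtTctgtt
HSD3B1, chr1:119506953-119506991, plus strand: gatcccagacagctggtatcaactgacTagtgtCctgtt

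The stretch ends 1 base before the annotated start of HSD3B2 but 212 bases before the first of 2 annotated starts of HSD3B1. The HSD3B1 windows did not hold CAAGGNCA or TGACG. In HSD3B2 both lie farther from the start than this stretch. The bases beyond the stretch in HSD3B1 fall outside the 250 searched, so whether the copies differ in these motifs was not tested.

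The NR5A receptors had low signals. NR5A1 was at 5.42 in siNC, 5.80 in siNC+8Br-cAMP, 6.07 in siYT and 6.35 in siYT+8Br-cAMP, and only the last of these reached the level filter. Both siYT arrays were above both siNC arrays, by 0.64 without and 0.55 with 8Br-cAMP, and the mean of 0.596 did not pass (SE 0.31, limma adjusted p = 0.295). The 8Br-cAMP differences were 0.38 and 0.28. NR5A2 was at 5.70 in siNC, 3.98 in siNC+8Br-cAMP, 4.699 in siYT and 4.47 in siYT+8Br-cAMP. It was the only one of the 10 genes whose highest value was in siNC and whose lowest was in siNC+8Br-cAMP. Its differences of -1.73 for 8Br-cAMP after siNC and -1.002 for the siRNA without 8Br-cAMP were not called because all 4 values were under the filter, and neither mean passed (limma adjusted p = 0.263 and 0.777). Between 62.9% and 88.6% of the negative controls were at or below NR5A2, so these values do not separate a level from the background.

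**Figure D2:**
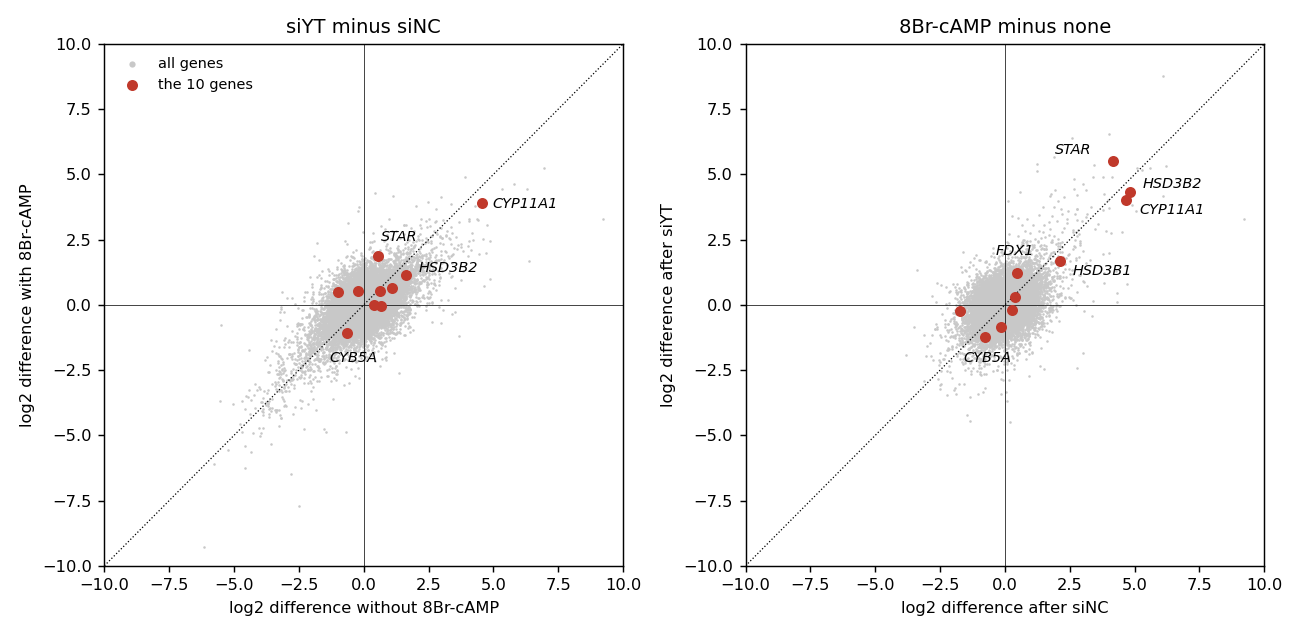
Log2 differences of all genes (grey) and of the 10 genes (red): siYT minus siNC without (horizontal) and with 8Br-cAMP (vertical) on the left, and 8Br-cAMP minus none after siNC (horizontal) and after siYT (vertical) on the right, with the line of equality dotted. CYP11A1 is at 4.56 and 3.91 on the left, and STAR, CYP11A1 and HSD3B2 are at 4.03 or more on the right; each panel uses the same 4 arrays.

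Of the 10 genes, 8 reached the level filter on some array, as did 55.1% of all genes. YAP/TAZ siRNA without 8Br-cAMP gave 2 calls higher, SCARB1 and CYP11A1, and 0 lower, where 7.60% of all genes were called higher and 7.32% lower. With 8Br-cAMP it gave 3 calls higher, STAR, CYP11A1 and HSD3B2, and 1 lower, CYB5A, where 5.52% of all genes were called higher and 5.94% lower. The median difference of the 10 genes was 0.59 without and 0.54 with 8Br-cAMP, against 0.02 and 0.06 over all genes. In the fit 2 of 10 rose with the siRNA, 0 fell and 8 did not pass, where 4.30% of all genes rose and 4.67% fell. 8Br-cAMP after siNC gave 3 calls higher, STAR, CYP11A1 and HSD3B2, and 0 lower, where 4.32% of all genes were called higher and 3.74% lower. After siYT it gave 4 calls higher, FDX1 in addition, and 1 lower, CYB5A, where 4.06% were called higher and 4.15% lower. The medians were 0.42 and 0.75, against -0.03 and -0.02 over all genes. In the fit 4 of 10 passed as higher with 8Br-cAMP, STAR, CYP11A1, HSD3B2 and, on values under the level filter, HSD3B1, while 0 fell and 6 did not pass, where 1.15% of all genes rose and 0.662% fell. With a pseudocount of 32 added on the linear scale, limma called none of the 17687 genes for either agent, while 3964 for the siRNA and 2769 for 8Br-cAMP had an unadjusted p under 0.05. The 4 genes that had passed for 8Br-cAMP then had adjusted p from 0.169 to 0.228, although the mean difference stayed at 4.80 for STAR and was 3.65 for CYP11A1, 3.57 for HSD3B2 and 0.58 for HSD3B1. For the siRNA CYP11A1 was at 3.53 and HSD3B2 at 0.95, with adjusted p of 0.0589 and 0.0873. Each of these adjusted p-values was the highest over that gene's alternatives, and the lowest ran from 2.57e-08 for HSD3B2 to 0.000915 for HSD3B1 with 8Br-cAMP and were 4.6e-08 for CYP11A1 and 0.0076 for HSD3B2 with the siRNA. The siRNA and 8Br-cAMP differences share arrays, siNC among them, and are given side by side only.

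The combination of both agents was set against what the separate differences would add up to on the log2 scale. For STAR the sum is 14.55 and the array read 15.90, a difference of differences of 1.35. STAR, higher, was the only one of the 10 genes called by this measure, where 3.57% of all genes were called higher and 4.82% lower. Without regard to the level filter, 614 of 17687 genes, STAR included, had a difference of differences at least as high. CYP11A1 read 12.84 against a sum of 13.50, a difference of differences of -0.66, and HSD3B2 read 10.12 against 10.62, one of -0.50. Each of these starts from an siNC value under the level filter, and with a pseudocount of 32 they turned to 0.58 and 0.28, so their direction depends on the background. FDX1 was at 0.74, and the other 6 genes lay between -0.70 for TSPO and 1.49 for NR5A2, whose values were all under the filter. None of these had a replicate check. Against siNC, cells with both agents were 6.05 higher in STAR (66.4-fold) and 3.64-fold lower in CYB5A. CYP11A1 and HSD3B2 were 8.59 and 5.96 log2 units higher, but 66.5% and 65.2% of the negative controls were at or below their siNC values. No fold is therefore given for them in this comparison, and their folds from siNC given above have the same limit. STAR, CYP11A1, HSD3B2 and CYB5A were the genes called, 3 higher and 1 lower, where 9.84% of all genes were called higher and 9.12% lower. The single agents differed between the genes. STAR and HSD3B2 were -3.62 and -3.19 in siYT relative to siNC+8Br-cAMP, while CYP11A1 was -0.12.

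**Figure D3:**
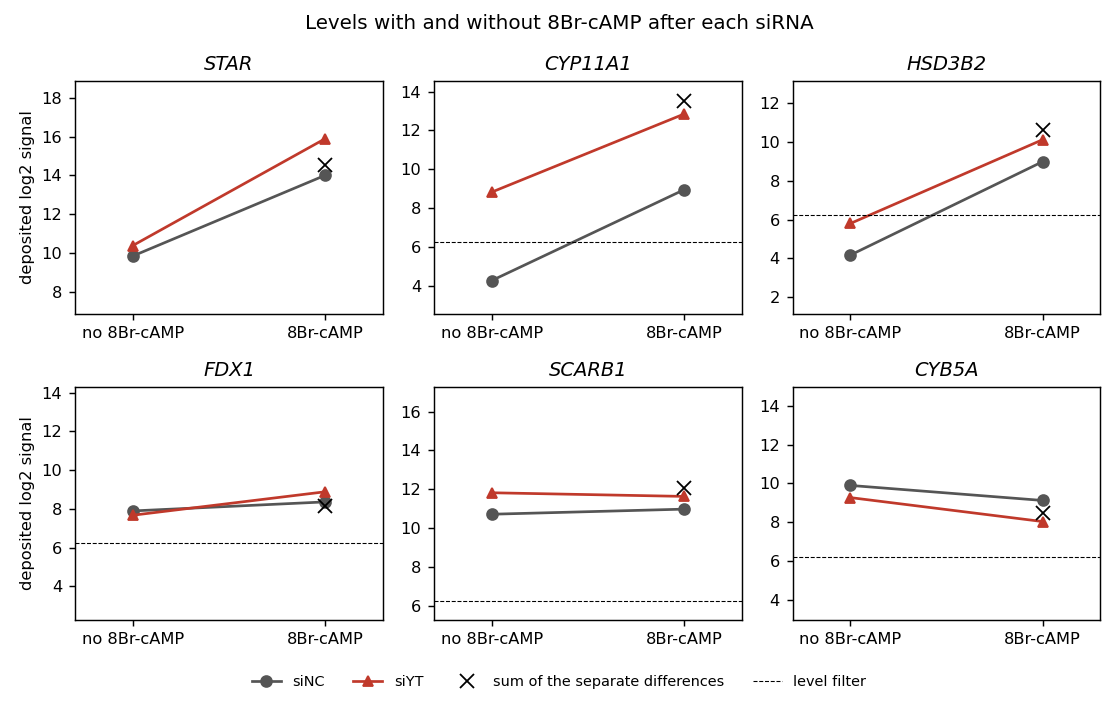
Deposited log2 signal (vertical axes, all spanning 12 log2 units) of 6 genes without and with 8Br-cAMP after siNC (grey circles) and siYT (red triangles), 1 array per point. The cross is the level that the separate siRNA and 8Br-cAMP differences add up to and the dashed line, where it falls in the panel, is the level filter; STAR read 15.90 against a sum of 14.55, CYP11A1 12.84 against 13.50 and HSD3B2 10.12 against 10.62.

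The profile over the 4 arrays, centred on each gene's own mean, was compared by Euclidean distance with the 9749 other genes that reached the level filter. The closest to STAR was CHMP1B, a membrane-remodelling protein, at a distance of 0.42, followed by HPD, an enzyme of tyrosine breakdown, at 0.84 and the non-coding RNA LINC00473 at 0.89. CHMP1B was at 10.49, 14.60, 11.31 and 16.23 in siNC, siNC+8Br-cAMP, siYT and siYT+8Br-cAMP. The closest to HSD3B2 were RHOB, a small GTPase, at 0.59, CHMP1B at 0.67 and TOB1, an antiproliferative protein, at 0.78. The closest to CYP11A1 were the receptor TNFRSF19 at 0.87, the phosphodiesterase PDE7B at 1.44 and the kinase PDK4 at 1.72. Profiles were centred but not scaled, and CYP11A1 had the widest range of the 10 genes. Its larger distances therefore need not mean a more unusual profile. TNFRSF19 was at 4.91, 9.82, 8.58 and 12.99 in the same order of groups. A profile of 4 arrays is a description.

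Genes that act beside the pathway were taken from 6 lists. Of the electron transfer partners of the steroidogenic enzymes, 3 of 6 were measured, CYB5B, CYB5R1 and CYB5R3. FDXR, FDX2 and POR were not measured, so the counts of this list do not cover them. With YAP/TAZ siRNA 2 rose, 0 fell and 1 did not pass, where 4.30% of all genes rose and 4.67% fell. CYB5R3 and CYB5R1 are reductases, and CYB5R3 is the one that passes electrons to cytochrome b5. CYB5R3 was at 13.99 in siNC, 14.41 in siNC+8Br-cAMP, 15.20 in siYT and 15.76 in siYT+8Br-cAMP, and rose by a mean of 1.28 (SE 0.31, limma adjusted p = 0.0282). CYB5R1 rose by 1.37 (SE 0.31, limma adjusted p = 0.0208). The median of the list was 1.21 without and 1.35 with 8Br-cAMP, over 3 genes. For 8Br-cAMP 0 of 3 passed in limma, and 0 had an unadjusted p under 0.05, where 14.7% of all genes had one.

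Of 18 genes of cholesterol uptake, storage and transport 15 were measured. With YAP/TAZ siRNA 1 rose, 1 fell and 13 did not pass, where 4.30% of all genes rose and 4.67% fell. By limma 8 of the 15 had an unadjusted p under 0.05, where 22.2% of all genes had one. By size 3 were called higher and 2 lower without 8Br-cAMP, where 7.60% and 7.32% of all genes were. With 8Br-cAMP 4 were called higher and 0 lower, where 5.52% and 5.94% were. LRP1, a lipoprotein receptor, was at 10.73 and 10.71 in the siNC arrays without and with 8Br-cAMP and at 13.13 and 12.68 in the siYT arrays, and rose by a mean of 2.19 (limma adjusted p = 0.00204). NCEH1, which frees stored cholesterol from its esters, fell by 1.63 (limma adjusted p = 0.0324), at -2.47 in medium without and -0.78 in medium with 8Br-cAMP. With 8Br-cAMP 1 of 15 rose and 14 did not pass, where 1.15% of all genes rose and 0.662% fell. The 1 that rose was GRAMD1B, also called Aster-B, a carrier of cholesterol out of the plasma membrane. GRAMD1B was at 9.44 in siNC, 11.84 in siNC+8Br-cAMP, 9.89 in siYT and 13.18 in siYT+8Br-cAMP. It rose by 2.85 (SE 0.34, limma adjusted p = 0.00204). PLIN2, a coat protein of lipid droplets, was at 6.18 in siNC, 6.94 in siNC+8Br-cAMP, 8.81 in siYT and 7.05 in siYT+8Br-cAMP, with siYT the highest. The medians of the list for the siRNA were 0.44 and 0.20.

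Among the 13 mitochondrial partners of TSPO and STAR, all measured, 0 passed for the siRNA and 0 for 8Br-cAMP, with 1 and 2 of its genes at an unadjusted p under 0.05 by limma, where 22.2% and 14.7% of all genes were. DBI, the acyl-CoA binding protein that is a ligand of TSPO, was at 14.11 in siYT and between 12.36 and 12.74 on the other arrays. The membrane proteins ATAD3A and ATAD3B had their highest values, 9.35 and 6.94, in siNC. Medians for the siRNA were -0.33 without and 0.07 with 8Br-cAMP.

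Of 23 coregulators and partners of the NR5A receptors 16 were measured. With YAP/TAZ siRNA 2 rose, 1 fell and 13 did not pass, where 4.30% of all genes rose and 4.67% fell. PPARGC1A, a coactivator of nuclear receptors, was at 8.35 in siNC, 10.14 in siNC+8Br-cAMP, 11.42 in siYT and 13.39 in siYT+8Br-cAMP. It was higher with each agent and rose by a mean of 3.16 with the siRNA (SE 0.31, limma adjusted p = 0.000203) and of 1.89 with 8Br-cAMP (limma adjusted p = 0.0131). NRIP1, a corepressor of nuclear receptors, rose with the siRNA by 1.33 (limma adjusted p = 0.0249). CITED2, a coactivator known to act with NR5A1 in the adrenal gland, fell by 1.45 (limma adjusted p = 0.0169). With 8Br-cAMP 2 of 16 rose and 14 did not pass, where 1.15% of all genes rose and 0.662% fell. The 2 were PPARGC1A and CTNNB1, the coactivator beta-catenin, the latter by 1.65 (limma adjusted p = 0.0385). GATA4, a factor that works beside NR5A1, was at 9.88 in siNC, 10.79 in siNC+8Br-cAMP, 10.90 in siYT and 11.65 in siYT+8Br-cAMP, and passed for neither agent. The list had medians of 0.14 and 0.38 for the siRNA and of 0.08 and 0.08 for 8Br-cAMP.

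Of 20 other steroid enzymes 17 were measured and 9 reached the level filter. With YAP/TAZ siRNA 3 rose, 0 fell and 14 did not pass, where 4.30% of all genes rose and 4.67% fell. Aromatase, CYP19A1, and HSD11B1, which makes cortisol from cortisone, had mean differences of 6.26 and 4.40, and HSD17B4, a peroxisomal enzyme that also oxidises estradiol, one of 1.14 (limma adjusted p = 0.0448). With 8Br-cAMP 1 of 17, CYP19A1, rose by a mean of 6.26 (SE 0.98, limma adjusted p = 0.00991) and 16 did not pass. Over all genes 1.15% rose with 8Br-cAMP and 0.662% fell. CYP19A1 was at 5.04 in siNC, 14.26 in siNC+8Br-cAMP, 14.26 in siYT and 17.56 in siYT+8Br-cAMP, so its means join unlike values. The 8Br-cAMP difference was 9.23 after siNC, from a value under the level filter, and 3.29 after siYT, a called difference of differences of -5.93. AKR1C1, which inactivates progesterone by reducing it, was at 9.51 in siNC, 11.74 in siNC+8Br-cAMP, 9.84 in siYT and 10.49 in siYT+8Br-cAMP. Its 8Br-cAMP difference was 2.23 after siNC and 0.65 after siYT, and the mean did not pass (limma adjusted p = 0.103). AKR1C1 has near-identical relatives whose RNA its probes may share. CYP17A1, CYP11B1 and CYP11B2, enzymes of androgen, cortisol and aldosterone synthesis, did not reach the level filter on any array. The medians for the siRNA were 0.33 and 0.26.

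Of 8 progesterone receptors 7 were measured. With YAP/TAZ siRNA 0 rose, 1 fell and 6 did not pass, where 4.30% of all genes rose and 4.67% fell. With 8Br-cAMP 0 of 7 passed in limma, with 3 at an unadjusted p under 0.05, where 14.7% of all genes were. PAQR5, a membrane progestin receptor, was at 9.55 in siNC, 8.12 in siNC+8Br-cAMP, 7.91 in siYT and 7.07 in siYT+8Br-cAMP, and fell with the siRNA by 1.35 (SE 0.32, limma adjusted p = 0.0262). PGR, the nuclear progesterone receptor, was at 8.38 in siNC, 6.88 in siNC+8Br-cAMP, 7.67 in siYT and 7.04 in siYT+8Br-cAMP and passed for neither agent. PGRMC2, a membrane heme-binding protein of the progesterone receptor membrane component family, was at 13.78 in siNC, 14.67 in siNC+8Br-cAMP, 13.79 in siYT and 15.04 in siYT+8Br-cAMP. The medians for the siRNA were 0.01 and 0.02.

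**Figure D4:**
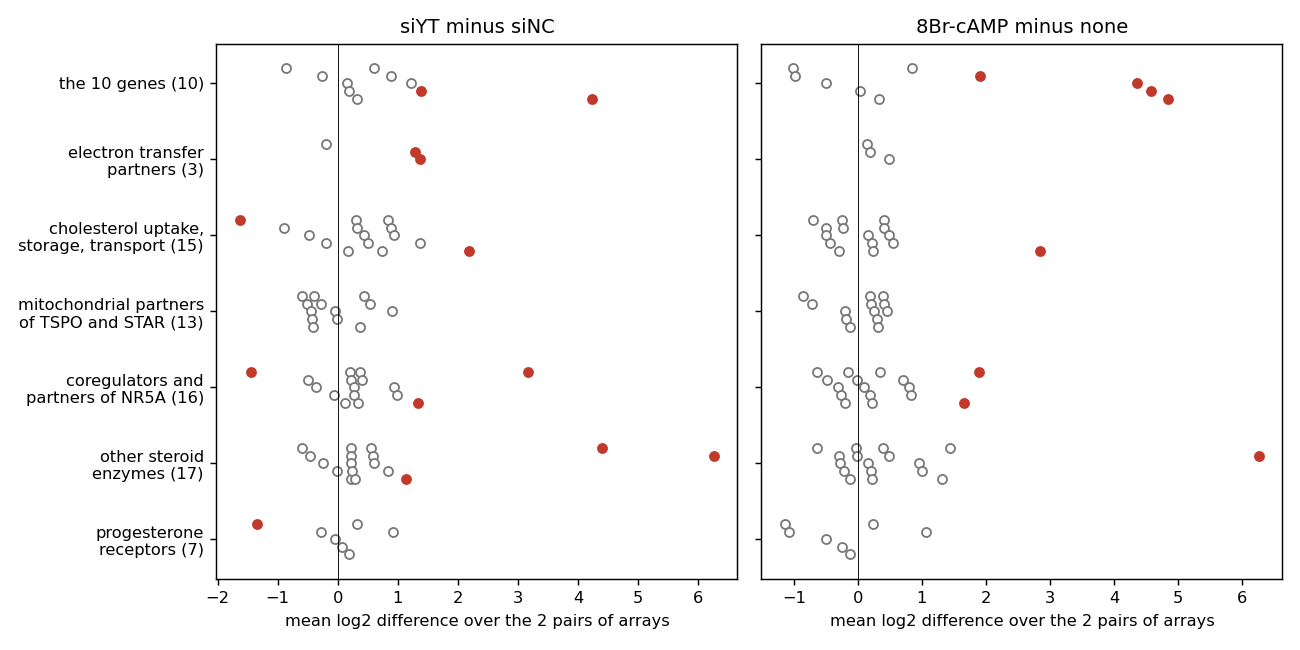
Mean log2 difference over the 2 pairs of arrays (horizontal axis) for the 10 genes and for the measured members of the 6 lists (rows, number measured in brackets), for YAP/TAZ siRNA on the left and 8Br-cAMP on the right; each point is a gene and is filled where it passed the additive limma fit. Of the 10 genes 2 are filled on the left and 4 on the right; the vertical offset within a row has no meaning.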

How the data were processed

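Clariom S Human arrays were hybridised with biotin-labelled RNA of KGN cells, 1 array for each of 4 groups. The authors deposited log2 signals from RMA, run in Affymetrix Expression Console per the submitters' processing notes, which corrects background, equalises the arrays' distributions and summarises probes. Versions and annotation build are not given in the sources used here. Of 24351 probe sets, 17709 named exactly 1 gene. Averaging within the 20 genes that had more than 1 left 17687 genes.

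Differences are log2 subtractions between arrays. The additive fit used limma 3.58.1 in R 4.3.3 with 1 residual and 9.24 prior degrees of freedom, with Benjamini-Hochberg adjustment over all genes at 0.05. The comparison of both agents with siNC and the promoter motifs were added after the values were seen.

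The 10 genes and the lists were chosen with earlier results of these data known. From each list the 3 genes with the widest range among those reaching the level filter were eligible to be named, with any that passed the fit or differed 2-fold in the same direction in both cases. Without replicates, precision is limited by the number of arrays. Alternatives changed the level filter, size threshold, scaling, pseudocount and choice of probe set.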

Additional observations from a re-analysis of the deposited data

Results flagged for a closer look

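For 5 of the 10 genes the difference had opposite signs in the 2 settings of the same contrast, with 1 array on each side, and whether the settings differ was not tested. The siRNA difference without and with 8Br-cAMP was 0.67 and -0.03 for TSPO (difference of differences -0.70), -0.22 and 0.52 for FDX1 (0.74), 0.41 and -0.02 for HSD3B1 (-0.43) and -1.002 and 0.49 for NR5A2 (1.49). The 8Br-cAMP difference after siNC and after siYT was 0.26 and -0.19 for SCARB1 (-0.45). After each array was centred on its median, the values of -0.03 for TSPO and -0.02 for HSD3B1 became 0.02 and 0.03, so for these 2 genes the opposite signs depend on the scaling. HSD3B1 and NR5A2 were under the level filter on all 4 arrays. No group had enough arrays to look for one that stands apart.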

How the results depend on the processing

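No paired analysis was possible because each group had 1 array, and for the same reason no array could be left out. Without a level filter, the calls among the 10 genes numbered 4 for the siRNA without 8Br-cAMP (18.1% of all genes), 5 for 8Br-cAMP after siNC (11.8%), 6 after siYT (11.1%) and 2 for the difference of differences (15.6%), since HSD3B1, HSD3B2 and NR5A2 entered. At 1.5-fold they numbered 4 for the siRNA without (26.5% of all genes) and 5 with 8Br-cAMP (23.3%), 4 for 8Br-cAMP after siNC (19.9%) and 6 after siYT (19.3%), and 4 for the difference of differences (21.1%). At 4-fold they numbered 1 for the siRNA without (3.68% of all genes) and 1 with 8Br-cAMP (2.52%), 3 for 8Br-cAMP after siNC (1.21%) and 3 after siYT (1.44%), and 0 for the difference of differences (1.02%). With a pseudocount of 32, limma called 0 of the 10 genes for the siRNA and 0 for 8Br-cAMP, while 5 and 6 had an unadjusted p under 0.05, and over all genes 0 passed for either, with 3964 and 2769 at that unadjusted p. The counts called by size were then 2, 4, 3, 5 and 1, as in the deposited values. The counts by size were also the same after centring, cyclic loess and a filter at the 95th percentile of the negative controls. Each of the 10 genes has 1 probe set, so the use of the highest probe set could not change their differences. Cyclic loess and a fit limited to genes reaching the level filter each brought STAR past the fit for the siRNA. Of 496 values of single genes under the alternatives, 461 kept their direction and side of the threshold, and 16 gained and 13 lost a call. A further 6 that were not called changed sign, among them the differences of differences of CYP11A1 and HSD3B2. The 461 include 70 from the highest probe set, where the differences could not change. Other filters or size thresholds also leave a difference as it is and can only move its call, so 461 overstates how far directions were tried. Values near the level filter of 6.22, as for NR5A1, cannot be separated from the background.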
